A study of Mus musculus with 64 samples.

Results

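Retinoic acid is made from vitamin A, and its level in the early embryo is set by the enzymes that make it and break it down. Aldh1a2 encodes the main enzyme that makes it in the embryo, Cyp26a1 an enzyme that removes it, and Rara, Rarb and Rarg encode the retinoic acid receptors, nuclear receptors that bind DNA with a retinoid X receptor at response elements. In the caudal epiblast, Cyp26a1 is known to shield progenitors from retinoic acid, and Aldh1a2 marks the mesoderm that supplies it. Cyp26a1 and Rarb are textbook targets of the receptors themselves.

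These 5 genes were described in ChIP-seq peak lists, an assay that sequences the DNA bound by a chosen protein and calls as peaks the regions with more fragments than background. A peak was counted for a gene when its summit, the position of highest signal, lay in the annotated gene or within 20 kb on either side of it. Of 12175735 peaks in 60 lists, 4149 fell into these windows, and 517 of them were among the 20000 strongest peaks of their library by the deposited fold over background. The question was where SOX2 and the mediators of WNT signalling occupied these genes in 4 cell conditions.

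The targets were SOX2, β-catenin, which brings the WNT signal to chromatin, and its DNA-binding partners LEF1, TCF7L1 and TCF7L2, the last 2 of which the labels also call TCF3 and TCF4. Naive ESC were wild-type mouse embryonic stem cells of the HM1 TetON line, which the labels give as HM1, in 2i medium with CHIR99021, an inhibitor of GSK3, and PD0325901, an inhibitor of MEK. CEpiLC, caudal epiblast-like cells, were the same wild-type cells after 2 days in bFGF and LGK974, which blocks WNT secretion, with CHIR99021 added until day 3. SOX2-ON and SOX2-OFF were SOX2 TetON cells in the same differentiation medium, either with doxycycline at 1 µg/ml or after its withdrawal. The SOX2 TetON line was built on the same HM1 TetON cells, lost its endogenous Sox2 by gene editing and carried a doxycycline-driven Sox2 transgene at the Hprt locus. It was derived by picking clones. All cells were labelled 72 h, with 3 biological replicates for every target in every condition. Peak lists hold no expression values, so neither the identity of the cells nor the level of SOX2 could be checked in them. SOX2-OFF libraries still held SOX2 peaks among their strongest, also at these genes, and how much SOX2 remained in those cells was not tested.

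Sequencing depth was unknown. Lists ran from 1628 to 991719 peaks, and 10 of the 60 held fewer than 20000. Those 10 came from β-catenin (3), LEF1 (3), TCF7L1 (2) and TCF7L2 (2), and 6 of them were CEpiLC libraries. Because of this spread, strength was expressed as a rank score, the log2 of the top-list length of 20000 over the rank of a peak in its own library. The same length was used for libraries with shorter lists. The score was 4.32 at rank 1000, 1 at rank 10000 and 0 where a library had no peak among its 20000 strongest. A score of 0 is therefore not proof of an unoccupied site, and the deposited fold from the full lists is given beside it. In a list shorter than 10000 peaks every peak scored above 1, however low its fold, so scores from short lists have a raised floor.

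Windows of 100 bp on each side of the summits were merged where they overlapped into sites, of which 220 lay in the 5 windows among 597757 in all. Most of the 220, 158 sites, rested on a peak in 1 library of 60. A site was called replicated when at least 2 of 3 libraries of some target and condition had a peak there, which left 32 sites at the 5 genes among 50427 genome-wide. Rara and Rarg had 10 each, Aldh1a2 and Rarb had 5 each, and Cyp26a1 had 2. Per 100 kb of window this gave 16 sites at Rarg, 11.5 at Rara, 4.57 at Cyp26a1, 4.15 at Aldh1a2 and 1.17 at Rarb, against a median of 2.31 over the windows of 21938 protein-coding genes. Rarg ranked above 98.6% and Rara above 95.7% of these genes, whereas Cyp26a1 ranked above 72.8%, Aldh1a2 above 68.5% and Rarb above 29.7%.

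The following sequences show the sites on which the comparisons turn, so that the reader can see what lay under each summit. Each is 201 bases of GRCm38 centred on the strongest summit, 5′ to 3′ on the strand of the gene. Capitals mark a SOX sequence (CATTGT or CTTTGT, or its reverse complement) or a TCF sequence (CTTTGAA or CTTTGAT). Distances run from the nearest transcript start of the basic annotation, with a minus sign for upstream.
Cyp26a1 −0.13 kb, chr19:37697571-37697771, plus strand: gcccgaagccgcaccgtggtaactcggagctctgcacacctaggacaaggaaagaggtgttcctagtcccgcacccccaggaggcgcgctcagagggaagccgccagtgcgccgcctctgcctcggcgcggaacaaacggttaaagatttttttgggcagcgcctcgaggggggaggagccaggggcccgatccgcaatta
Aldh1a2 +1.59 kb, chr9:71217284-71217484, plus strand: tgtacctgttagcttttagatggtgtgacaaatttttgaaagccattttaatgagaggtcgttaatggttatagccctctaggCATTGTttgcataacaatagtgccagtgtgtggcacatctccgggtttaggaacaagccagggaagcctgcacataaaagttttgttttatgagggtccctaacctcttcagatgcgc
Aldh1a2 +16.2 kb, chr9:71231855-71232055, plus strand: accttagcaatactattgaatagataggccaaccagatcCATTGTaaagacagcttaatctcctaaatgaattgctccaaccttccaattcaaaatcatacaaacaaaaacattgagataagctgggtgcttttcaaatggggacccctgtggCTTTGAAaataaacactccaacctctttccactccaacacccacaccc
Rara −1.69 kb, chr11:98926025-98926225, plus strand: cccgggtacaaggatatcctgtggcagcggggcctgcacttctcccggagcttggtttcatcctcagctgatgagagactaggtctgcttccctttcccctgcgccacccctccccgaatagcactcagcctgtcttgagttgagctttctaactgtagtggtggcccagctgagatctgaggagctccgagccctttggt
Rara +4.3 kb, chr11:98964610-98964810, plus strand: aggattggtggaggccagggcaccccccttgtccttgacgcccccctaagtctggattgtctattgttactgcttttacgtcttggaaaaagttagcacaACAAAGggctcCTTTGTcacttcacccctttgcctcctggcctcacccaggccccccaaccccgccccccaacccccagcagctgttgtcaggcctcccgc
Rarb −215 kb, chr14:16790239-16790439, minus strand: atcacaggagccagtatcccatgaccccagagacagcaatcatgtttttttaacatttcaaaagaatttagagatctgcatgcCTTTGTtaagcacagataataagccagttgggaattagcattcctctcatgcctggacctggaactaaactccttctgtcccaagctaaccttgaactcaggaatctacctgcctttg
Rarg +3.14 kb, chr15:102243263-102243463, minus strand: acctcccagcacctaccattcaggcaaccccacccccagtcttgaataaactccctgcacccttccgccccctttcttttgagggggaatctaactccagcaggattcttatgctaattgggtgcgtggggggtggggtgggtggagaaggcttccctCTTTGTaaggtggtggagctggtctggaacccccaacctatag
Rarg +2.53 kb, chr15:102243873-102244073, minus strand: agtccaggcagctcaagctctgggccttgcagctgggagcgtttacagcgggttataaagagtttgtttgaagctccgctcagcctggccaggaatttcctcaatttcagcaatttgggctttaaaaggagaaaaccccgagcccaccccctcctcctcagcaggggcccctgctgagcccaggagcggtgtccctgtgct

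At 4 of these 8 windows a SOX sequence was the only one of the searched motifs, at Aldh1a2 +16.2 kb a SOX and a TCF sequence were both present, and at Cyp26a1 −0.13 kb, Rara −1.69 kb and Rarg +2.53 kb no searched motif was found. Of the 32 replicated sites, 12 (37.5%) held a SOX sequence within 100 bp of the summit, 5 (15.6%) a TCF sequence and 1 (3.12%) a CDX sequence (TTTATGG or TTTATTG). Among all 37195 sites with a peak in at least 3 of the 12 libraries of some target, the shares were 46%, 28.3% and 5.51%. That set follows a different rule from that of the 32 replicated sites, so the shares cannot be compared directly. The SOX letters overlap the TCF letters in part, since CTTTG opens both. All motifs were searched on both strands, and a match is a description of the letters and not a measured binding site.

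The retinoic acid response element, here 2 hexamers in the same direction with 5 bases between them, each being AGGTCA or AGTTCA or GGGTCA or GGTTCA, was searched in the RefSeq promoters, 250 bases before to 50 after each start. It occurred in 32 of 32851 promoters (0.0974%), and the promoters of Rarb and Cyp26a1 were among them. The elements are shown with their flanks because both lie inside occupied sites, with the element in capitals.
Rarb, chr14:16575506-16575535, minus strand, GRCm38.p6, centred 45 bases upstream of the RefSeq start: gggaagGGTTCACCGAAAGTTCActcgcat
Cyp26a1, chr19:37697770-37697799, plus strand, GRCm38.p6, centred 24 bases upstream of the RefSeq start, element on the opposite strand: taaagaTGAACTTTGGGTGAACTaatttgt

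The Rarb element fell within chr14:16575507-16576018, a SOX2 site, and the Cyp26a1 element within chr19:37697571-37697842, a TCF7L2 site. Neither was within 100 bp of the strongest summit, and no replicated site at the 5 genes held the element in that narrower window (0 of 32). Among the 37195 sites chosen by the other rule, 60 or 0.161% held it.

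**Figure D1:**
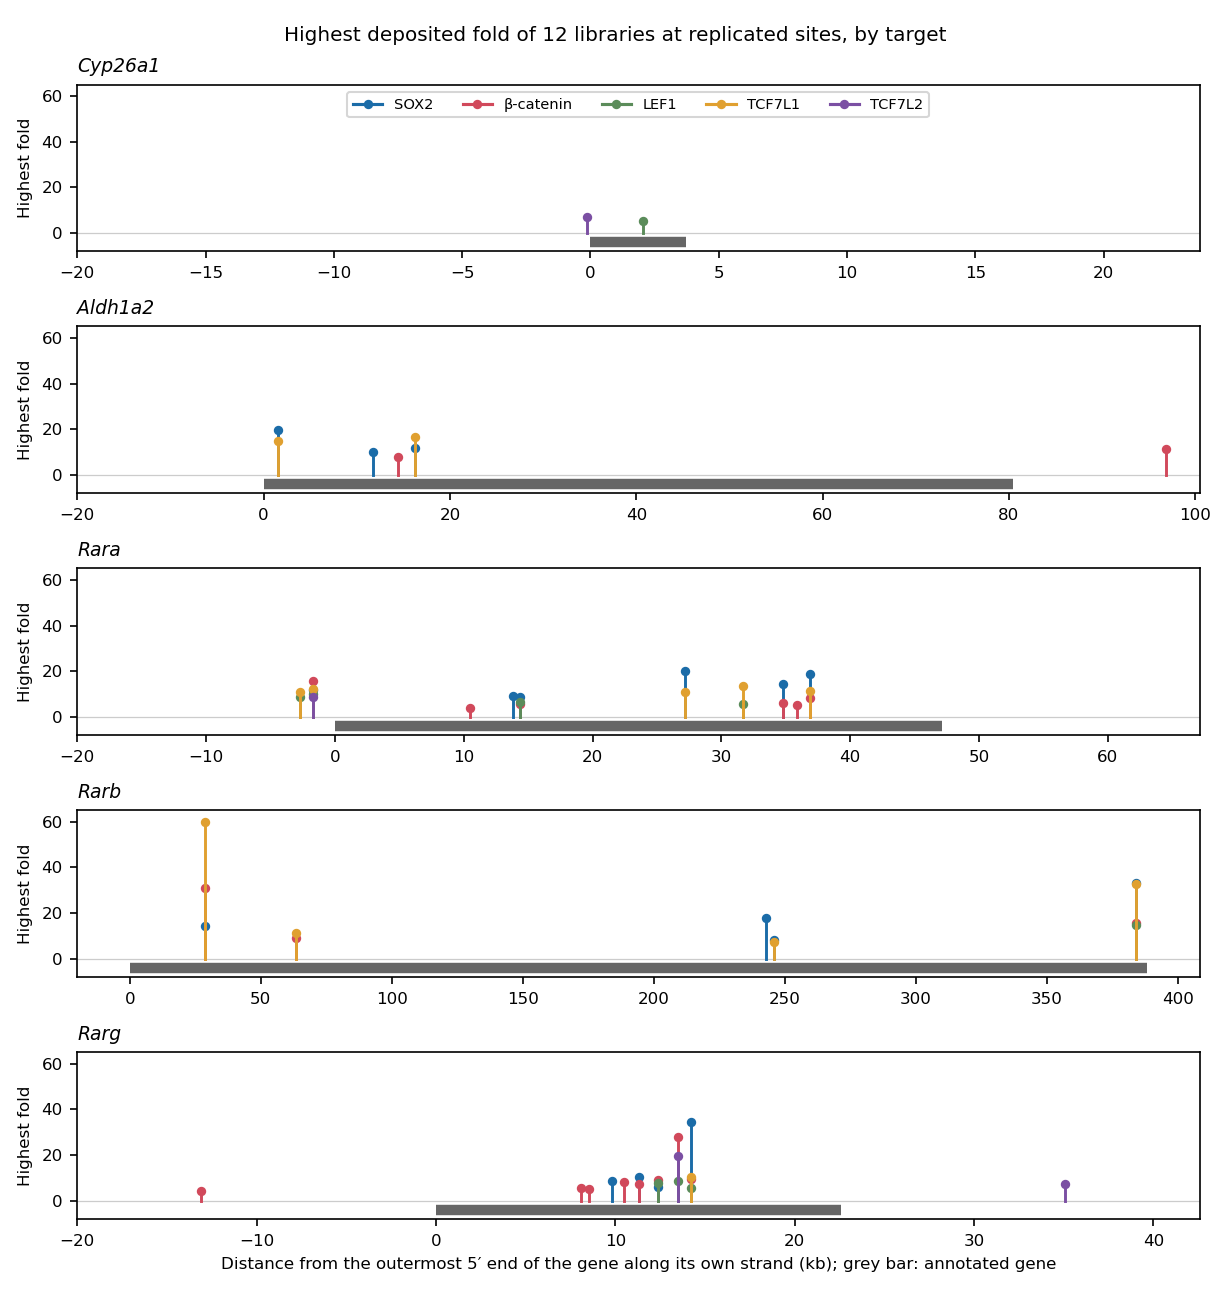
Highest deposited fold over background among the 12 libraries of a target (y axis) at each replicated site, against distance in kb from the outermost 5′ end of the gene along its own strand (x axis). A stem is drawn only for targets with a peak in at least 2 of 3 libraries of some condition, and the grey bar is the annotated gene. The highest fold, 60, was that of TCF7L1 near the 5′ end of Rarb, while no stem at Cyp26a1 exceeded 7.07.

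Of the 32 replicated sites, 22 were in introns of basic transcripts, 4 upstream of the gene, 2 in exons, 2 downstream, and 2 inside Rarb but outside its basic transcripts. Only 6 were within 1 kb of a basic start. SOX2 was replicated at 17, β-catenin at 19, TCF7L1 at 12, LEF1 at 9 and TCF7L2 at 4. SOX2 and β-catenin were both replicated at 9 sites, and 1 site, upstream of Rara, was replicated for all 5 targets. A single target accounted for 15 sites.

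**Figure D2:**
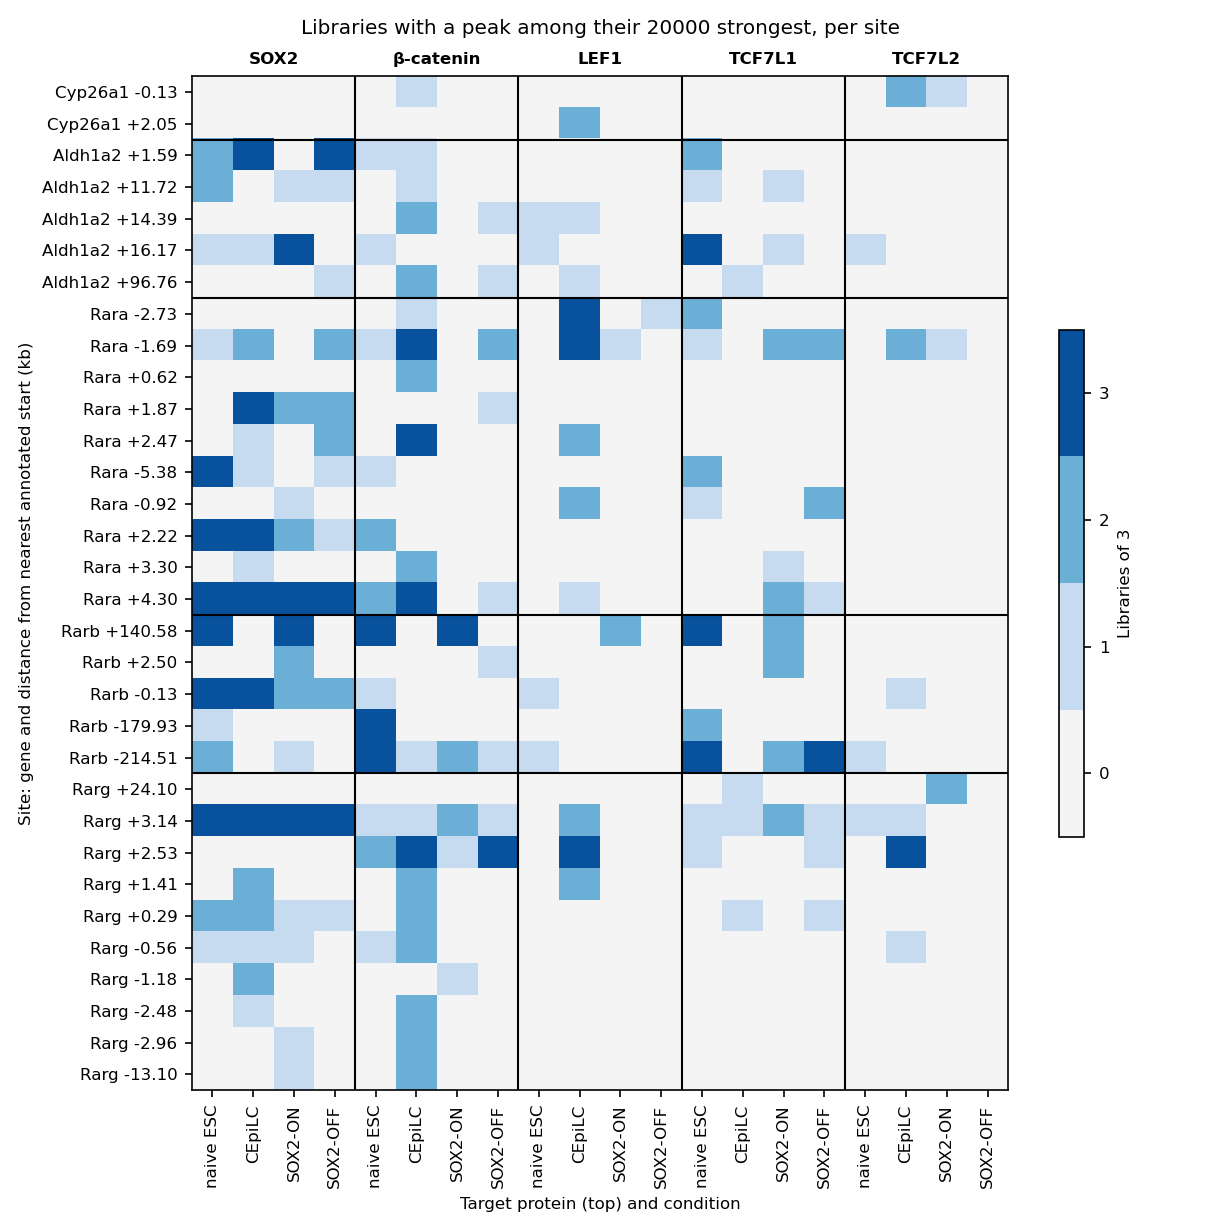
Number of libraries of 3 (shade) with a peak among their 20000 strongest at each of the 32 replicated sites (rows, with distance from the nearest basic transcript start in kb), for 5 targets and 4 conditions (columns). SOX2 filled all 12 libraries at Rara +4.3 kb and Rarg +3.14 kb, whereas SOX2 and β-catenin at Rarb +141 kb appeared in naive ESC and SOX2-ON.

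The design gives 2 comparisons, CEpiLC against naive ESC in wild-type cells and SOX2-ON against SOX2-OFF in the SOX2 TetON line. The rank scores of the 12 libraries of a target were fitted with limma at every site with a peak in at least 3 of them, and p-values were adjusted by the Benjamini-Hochberg method over all sites of that target. Sites that pass this filter can do so through a single condition, and counts at the 5 genes are read against the share of all tested sites called. The fit tested 39 pairs of site and target at the 5 genes, and Cyp26a1 contributed 1 of them. According to the methods, each triplicate was collected in independent experiments, and the p-values measure the spread between these libraries.

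In CEpiLC against naive ESC, 17 of the 39 pairs passed an adjusted p of 0.05 in limma, 11 higher in CEpiLC and 6 lower. For SOX2, 4 of 15 pairs passed (26.7%), against 25.5% of all 22762 SOX2 sites tested. For β-catenin it was 7 of 11 against 48.9% of 18787 sites, for LEF1 3 of 3 against 34.1% of 6877, for TCF7L1 2 of 7 against 45.1% of 17502, and for TCF7L2 1 of 3 against 16.4% of 5748. The median difference of the members was 0.32 for SOX2 and 1.09 for β-catenin, against 0.0265 and 0 over all tested sites of these targets. The 3 LEF1 pairs were higher in CEpiLC and the 2 called TCF7L1 pairs lower, and the medians over all tested sites of these targets had the same signs, 1.43 for LEF1 and −0.796 for TCF7L1. All 3 LEF1 pairs had a naive ESC mean of 0 and met the filter through their CEpiLC libraries. Their direction followed from the filter, and the 3 of 3 is a description.

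In SOX2-ON against SOX2-OFF, 6 of the 39 pairs passed, 3 in each direction. For SOX2 4 of 15 pairs passed, against 22.3% of all SOX2 sites, and for β-catenin 2 of 11, against 15.1%. None of the 3 LEF1, 7 TCF7L1 and 3 TCF7L2 pairs passed in limma, where 8.58%, 4.04% and 4.31% of all sites of these targets did. At an unadjusted p below 0.05 there was 1 such pair, TCF7L1 at Rarb +141 kb. The shares for SOX2 and β-catenin were thus near those of all sites.

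**Figure D3:**
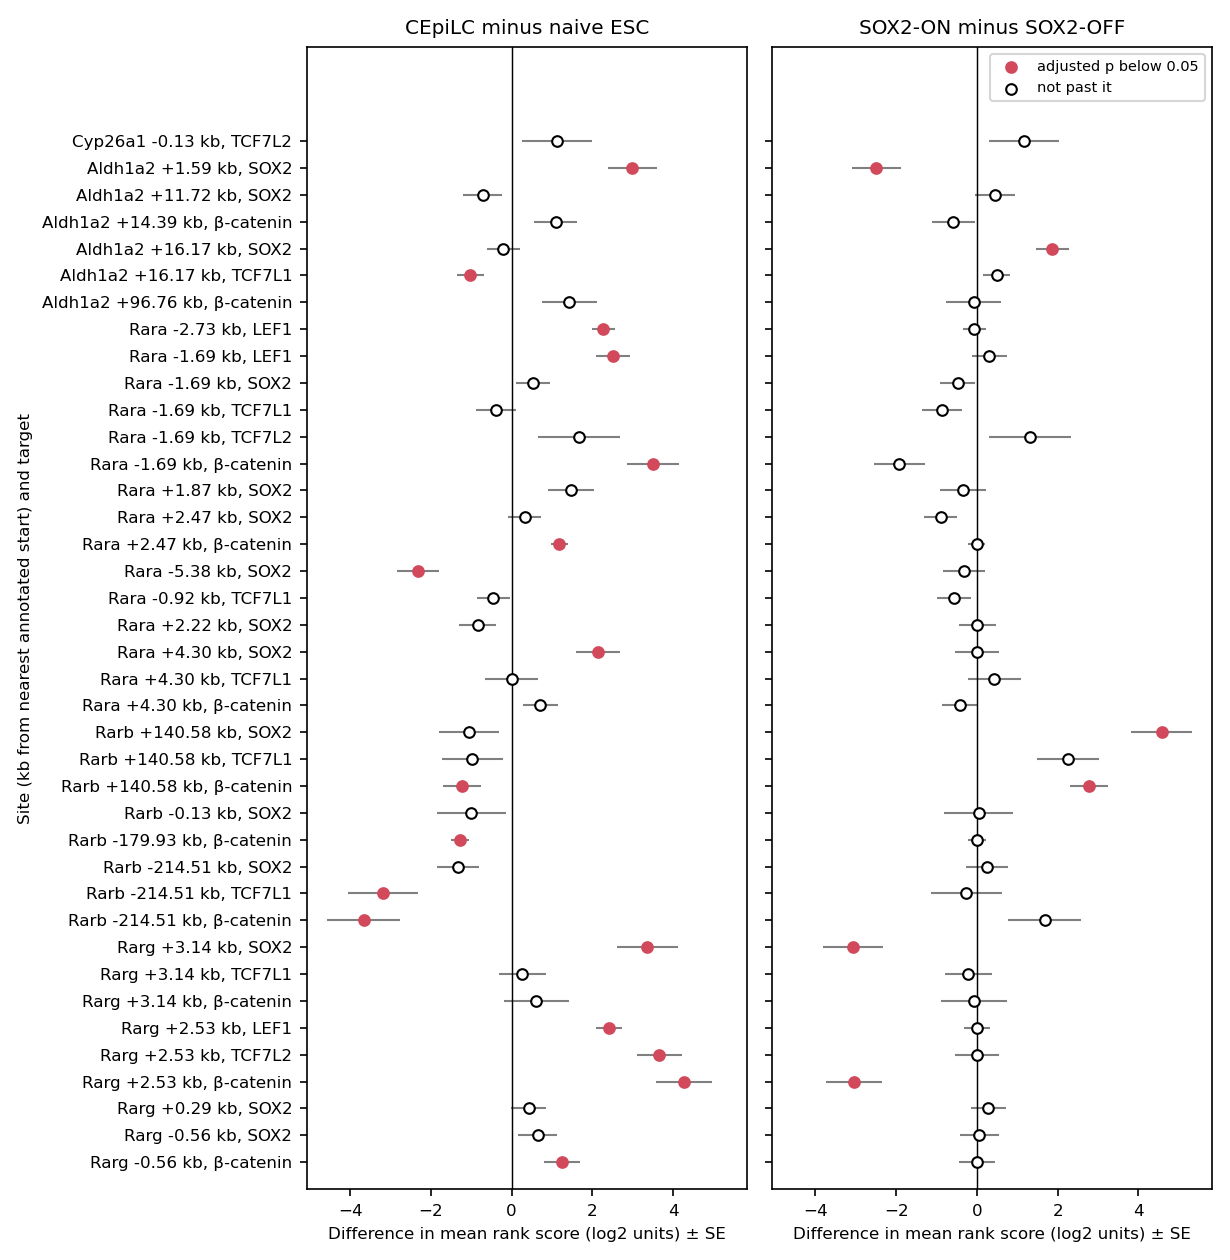
Difference in mean rank score (log2 units, x axis) with its standard error from the limma fit, for the 39 tested pairs of site and target (y axis), in CEpiLC minus naive ESC on the left and SOX2-ON minus SOX2-OFF on the right. Filled red points have an adjusted p below 0.05: 17 on the left and 6 on the right.

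Cyp26a1 (ENSMUSG00000024987.6, chromosome 19, 37697798 to 37701536, plus strand), which encodes the enzyme that clears retinoic acid, had few top-list peaks in the smallest of the 5 windows. Over its 43739 bp, 22 of the 277 peaks were in top lists, and those came from 17 of 60 libraries. Its promoter site at −0.13 kb was replicated for TCF7L2 in CEpiLC alone, with rank scores of 2.42, 0 and 0.95 in the 3 CEpiLC libraries and 0 in all 3 naive ESC libraries. CEpiLC and naive ESC overlapped at 0, and the SOX2-ON libraries scored 0, 3.47 and 0 and the SOX2-OFF libraries 0 throughout. In the full lists all 3 CEpiLC libraries had a peak there, with deposited folds of 4.82, 6.86 and 7.07, as did naive ESC replicate 3 with 6.24. CEpiLC replicate 1, with the lowest of these folds and the highest CEpiLC score, had a list of 4627 TCF7L2 peaks. The difference was 1.13 ± 0.87 (SE, n = 3 per group) for CEpiLC against naive ESC, with a limma adjusted p of 0.43, and 1.16 ± 0.87 for SOX2-ON against SOX2-OFF, with 0.63. A second site in an intron at +2.05 kb, chr19:37699581-37699948, was replicated for LEF1 in CEpiLC. SOX2 was replicated at neither site. The neighbouring gene Cyp26c1, a related enzyme, lies partly in the same window.

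Aldh1a2 (ENSMUSG00000013584.5, chromosome 9, 71215789 to 71296243, plus strand), which encodes the enzyme that makes retinoic acid, had 2 intronic sites at which SOX2 moved in opposite directions. At +1.59 kb, chr9:71217247-71217582, SOX2 was stronger in CEpiLC and in SOX2-OFF. At +16.2 kb, chr9:71231570-71232209, it was stronger in SOX2-ON.

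At the +1.59 kb site the SOX2 rank scores were 0, 1.46 and 0.63 in naive ESC, 4.98, 3.21 and 2.86 in CEpiLC, 0, 0 and 0 in SOX2-ON, and 2.56, 2.48 and 2.42 in SOX2-OFF. All CEpiLC libraries lay above all naive ESC libraries, and all SOX2-OFF above all SOX2-ON. The deposited folds reached 19.9, 11.9 and 12.3 in CEpiLC, while the full lists of SOX2-ON still held a peak in 2 of 3 libraries, with folds of 5.79 and 5.92. The CEpiLC libraries exceeded the naive ESC libraries by 2.99 ± 0.60 (SE, n = 3 per group, limma adjusted p = 0.0031), and SOX2-ON minus SOX2-OFF was −2.49 ± 0.60 (adjusted p = 0.0093). With all deposited peaks on the log2 fold scale, neither difference passed (0.77 with adjusted p = 0.53, and −1.47 with 0.19). The SOX2 TetON call was also lost with the 5000 strongest peaks (−0.49, limma adjusted p = 0.49) and with no filter on sites (−2.49, 0.089). It was lost without replicate 2 (−2.49, 0.079) or 3 (−2.52, 0.094) of every group too. The SOX sequence CATTGT in the printed window lay 15 bases from the summit.

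At the +16.2 kb site the SOX2 scores were 2.24, 2.38 and 0.99 in SOX2-ON and 0 in all 3 SOX2-OFF libraries, without overlap. The full lists of SOX2-OFF had no peak there either, and the difference was 1.87 ± 0.41 (SE, n = 3 per group, limma adjusted p = 0.0049). The call was lost with only the 6 libraries of the contrast (1.87, limma adjusted p = 0.092) and without replicate 1 (1.69, 0.083) or 2 (1.62, 0.052) of every group. Naive ESC scored 0, 0.71 and 0 and CEpiLC 0, 0 and 0.07, a difference of −0.21 ± 0.41 with adjusted p = 0.79. The SOX2 pair thus met the filter through SOX2-ON, and its difference is a description. TCF7L1, the TCF that often acts as a repressor in stem cells, had a peak in all 3 naive ESC libraries at this site, with scores of 1.18, 0.81 and 1.06, and in no CEpiLC library. That difference of −1.02 ± 0.34 had a limma adjusted p of 0.033, and leaving out naive ESC replicate 1 (−0.93, adjusted p = 0.089), naive ESC replicate 3 (−1, 0.081) or CEpiLC replicate 1, 2 or 3 (−1.02, with 0.073, 0.077 and 0.079) ended the call. The TCF7L1 pair met the filter through naive ESC, so its difference is a description too. β-catenin was replicated at +14.4 kb and, downstream of the gene, at +96.8 kb, in CEpiLC in both cases. At +14.4 kb its scores were 0, 1.25 and 2.03 in CEpiLC and 0 in naive ESC (1.09 ± 0.53, SE, n = 3 per group, limma adjusted p = 0.11), and SOX2-OFF replicate 3 alone had a peak in the SOX2 TetON line (1.75). This difference passed without CEpiLC replicate 1 (1.64, adjusted p = 0.022) or without SOX2-OFF replicate 3 (1.09, adjusted p = 0.047).

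Rara (ENSMUSG00000037992.16, chromosome 11, 98927818 to 98974942, plus strand), the receptor gene expressed most widely in tissues, carried 10 replicated sites. Upstream of it, β-catenin and LEF1 were stronger in CEpiLC than in naive ESC. SOX2 changed at a pair of intronic sites in opposite directions.

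The site at −1.69 kb, chr11:98925788-98926354, was the 1 replicated for all 5 targets. Its β-catenin scores were 3.68, 3.63 and 3.42 in CEpiLC, against 0.23, 0 and 0 in naive ESC. All CEpiLC values exceeded all naive ESC values, by 3.5 ± 0.64 (SE, n = 3 per group, limma adjusted p = 9e-04). The full lists of naive ESC held a peak in each library, with folds of 6.49, 4.22 and 5.34, against 15.6, 13.9 and 10.5 in CEpiLC, and with all deposited peaks on the log2 fold scale the difference of 1.17 did not pass (adjusted p = 0.36). In the SOX2 TetON line, the β-catenin scores were 0 in all SOX2-ON libraries and 2.96, 0 and 2.79 in SOX2-OFF, so that the groups overlapped at 0. The difference was −1.92 ± 0.64 with an adjusted p of 0.07. It rested on SOX2-OFF replicate 2, whose list held 3423 peaks: without that library the difference was −2.88 with an adjusted p of 0.00019.

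LEF1 at the same site scored 2.47, 1.88 and 3.18 in CEpiLC and 0 in all 3 naive ESC libraries, a difference of 2.51 ± 0.43 (SE, n = 3 per group, limma adjusted p = 0.00094). Leaving out any 1 library gave 2.18 to 2.83, all past the threshold. The difference did not pass with no filter on sites (2.51, limma adjusted p = 0.22) or with all deposited peaks on the log2 fold scale (1.24, 0.62). Outside CEpiLC the mean LEF1 score was 0.31 in SOX2-ON and 0 in naive ESC and SOX2-OFF. The pair thus met the filter through CEpiLC, and its difference is a description. TCF7L2 scored 2.68, 0 and 2.33 in CEpiLC and 0 in naive ESC (1.67 ± 1.01, adjusted p = 0.3), and in the full lists CEpiLC had a peak in all 3. TCF7L1 was replicated there in SOX2-ON and SOX2-OFF, and neither TCF7L1 difference passed. A second upstream site at −2.73 kb, chr11:98924993-98925522, also had LEF1 in all 3 CEpiLC libraries and in no naive ESC top list (2.27 ± 0.29, adjusted p = 0.00017). In the full lists, naive ESC replicate 3 had a LEF1 peak there with a fold of 8.77, above the 4.45, 6.77 and 7.54 of CEpiLC, and all 3 SOX2-ON libraries had one (4.36, 3.98 and 4.2). CEpiLC replicate 1 entered with a list of 4443 LEF1 peaks. The β-catenin pair at +2.47 kb was called too (1.18 ± 0.21, adjusted p = 0.00067), and it passed the filter through CEpiLC alone. The last 2 pairs lie outside the fixed rule for named sites and were chosen after their values were seen.

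Within the gene, SOX2 at +4.3 kb, chr11:98964575-98964897, had a peak in all 12 libraries. This position is 162 bp upstream of a RefSeq start of Rara, and its window held CTTTGT on both strands beside the summit. Scores were 1.59, 2.94 and 2.25 in naive ESC, 4.73, 4.30 and 4.18 in CEpiLC, 2.70, 2.89 and 2.64 in SOX2-ON, and 2.88, 2.66 and 2.68 in SOX2-OFF. CEpiLC stood above the other conditions, and SOX2-ON and SOX2-OFF overlapped. CEpiLC minus naive ESC was 2.14 ± 0.55 (SE, n = 3 per group, limma adjusted p = 0.012), and SOX2-ON minus SOX2-OFF was 0.00 ± 0.55 (adjusted p = 1). The deposited folds of the first 2 conditions were closer, 13, 16.3 and 12.3 against 18.5, 16.9 and 18.8, and on that scale with all peaks the difference was 0.37 (adjusted p = 0.39). This call was also lost with no filter on sites (2.14, limma adjusted p = 0.26) and without replicate 1 (1.64, 0.062) or 3 (2.25, 0.073) of every group. TCF7L1 at this site scored 0 in all naive ESC and CEpiLC libraries, 0, 2.58 and 0.79 in SOX2-ON and 0, 2.09 and 0 in SOX2-OFF (0.43 ± 0.66, adjusted p = 0.87).

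SOX2 at −5.38 kb from the start of a short Rara transcript, chr11:98954868-98955321, moved the other way. It scored 3.48, 2.58 and 1.35 in naive ESC and 0.43, 0 and 0 in CEpiLC, with all naive ESC libraries higher. The difference was −2.32 ± 0.52 (SE, n = 3 per group, limma adjusted p = 0.0059), and on the log2 fold scale it was −2.20 (adjusted p = 0.19). Without replicate 2 of every group it did not pass either (−2.2, limma adjusted p = 0.11). SOX2-ON scored 0 in all 3 libraries and SOX2-OFF 0.96, 0 and 0 (−0.32 ± 0.52, adjusted p = 0.79), so the site had few strong peaks in either state of the SOX2 TetON line. The SOX2 pair thus met the filter through naive ESC. TCF7L1 was replicated there in naive ESC, near the end of the top lists, with a highest score of 0.32.

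Rarb (ENSMUSG00000017491.9, chromosome 14, 16430839 to 16819156, minus strand) encodes the receptor whose gene is itself switched on by retinoic acid. It had few sites for its length but the highest fold at a replicated site of the 5 genes. SOX2 was replicated at its promoter in all 4 conditions, whereas SOX2 and β-catenin at its 3′ end were stronger in SOX2-ON than in SOX2-OFF.

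The 3′ site, +141 kb at chr14:16434800-16435137, lies in an intron of Rarb near its end and, on the other strand, in the untranslated part of an exon of Top2b, a topoisomerase gene. Thus it cannot be assigned to Rarb from position. The following 30 bases, chr14:16434991-16435020 on the minus strand of GRCm38, show its SOX sequence in capitals, as the reverse complement of CTTTGT, 43 bases from the summit.
Rarb +141 kb: aacagagcaattACAAAGgcacagaagaga

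SOX2 at this site scored 5.22, 2.64 and 5.88 in SOX2-ON, with folds of 24, 12.6 and 33.4, and 0 in all 3 SOX2-OFF libraries, whose full lists held no peak there. The groups did not overlap, and the difference was 4.58 ± 0.75 (SE, n = 3 per group, limma adjusted p = 0.00075). It was the largest of the 39 differences in either comparison and passed the threshold in all 29 alternatives. Naive ESC scored 0.47, 2.11 and 0.59 and CEpiLC 0, 0 and 0, again without overlap, but this difference of −1.06 ± 0.75 did not pass (adjusted p = 0.34). With all deposited peaks on the log2 fold scale it was −2.61 with an adjusted p of 0.021.

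β-catenin followed SOX2 in order at the 3′ site, with 2.34, 2.90 and 3.05 in SOX2-ON, 1.26, 0.15 and 2.28 in naive ESC, and 0 in all CEpiLC and SOX2-OFF libraries. Full lists of the last 2 conditions also held no β-catenin peak there. SOX2-ON minus SOX2-OFF was 2.77 ± 0.47 (SE, n = 3 per group, limma adjusted p = 0.0015), and this call was lost without replicate 1 of every group (2.98, adjusted p = 0.055). CEpiLC minus naive ESC was −1.23 ± 0.47 with adjusted p = 0.049, and leaving out any 1 library other than naive ESC replicate 2 ended the call, with values of −1.23 to −0.71 and adjusted p from 0.05 to 0.17. TCF7L1 had peaks in 3 naive ESC and 2 SOX2-ON libraries, with scores of 0.42, 0.99 and 1.5 and of 0, 3.21 and 3.58, and in no CEpiLC or SOX2-OFF library. Its SOX2-ON minus SOX2-OFF difference of 2.26 ± 0.76 had an adjusted p of 0.16. LEF1 scored 0, 4.79 and 0.04 in SOX2-ON and 0 elsewhere, and TCF7L2 was at 0 in all 12 top lists.

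At the promoter, −0.13 kb at chr14:16575507-16576018, the SOX2 scores were 2.93, 2.22 and 1.41 in naive ESC, 0.80, 1.35 and 1.4 in CEpiLC, 3.03, 0 and 0.32 in SOX2-ON, and 0, 2.63 and 0.60 in SOX2-OFF. This is the site that holds the response element shown above, and it also lies in an untranslated exon of a Rarb transcript and in an exon of the gene model Gm48162. CEpiLC minus naive ESC was −1 ± 0.85 (SE, n = 3 per group, limma adjusted p = 0.44), and SOX2-ON minus SOX2-OFF was 0.04 ± 0.85 (adjusted p = 1). No other target was replicated at the promoter. The 30 bases below, chr14:16575675-16575704 on the minus strand of GRCm38, hold its SOX sequence in capitals, 16 bases from the summit.
Rarb −0.13 kb: ctgcgctcctggCATTGTttgcacgctgag

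A pair of sites in the 5′ part of the gene, inside introns of the long coding transcripts Rarb-203 and Rarb-204, were occupied more strongly in naive ESC than in CEpiLC. The site at −215 kb from the basic starts, chr14:16790142-16790500, is 28.8 kb inside the gene from its outermost 5′ end. Its β-catenin scores were 4.04, 3.78 and 3.34 in naive ESC and 0.16, 0 and 0 in CEpiLC, a difference of −3.67 ± 0.91 (SE, n = 3 per group, limma adjusted p = 0.0057) with no overlap. This β-catenin call was lost without replicate 3 of every group (−3.83, limma adjusted p = 0.078) and without lists shorter than 20000 peaks (−3.56, 0.14). TCF7L1 scored 2.20, 3.66 and 3.72 in naive ESC, with folds of 19, 25.2 and 60, and 0 in CEpiLC, whose full lists held no TCF7L1 peak there (−3.19 ± 0.87, adjusted p = 0.012). CEpiLC replicate 1 had a list of 1628 TCF7L1 peaks, and the call was lost with every library held to the shortest list of the target (−0.05, adjusted p = 0.77), with the 5000 strongest peaks (−1.19, 0.1), with no filter on sites (−3.19, 0.12) and without replicate 2 (−2.96, 0.055) or 3 (−2.93, 0.18) of every group.

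In the SOX2 TetON line this site was occupied in both states. TCF7L1 scored 0, 4.02 and 2.10 in SOX2-ON and 1.97, 2.33 and 2.59 in SOX2-OFF (−0.26 ± 0.87, limma adjusted p = 1). β-catenin scored 0, 4.47 and 2.37 in SOX2-ON and 0, 0 and 1.80 in SOX2-OFF (1.68 ± 0.91, adjusted p = 0.27). The β-catenin difference turned on SOX2-ON replicate 1, without which it was 2.81 (adjusted p = 0.022). At −180 kb, chr14:16755652-16755965, β-catenin scored 0.99, 1.76 and 1.09 in naive ESC and 0 in CEpiLC, a difference of −1.28 ± 0.22 (adjusted p = 0.00053) that passed in all 26 alternatives that gave a value. SOX2-ON and SOX2-OFF scored 0 there, so the pair passed the filter through naive ESC alone and its difference is a description.

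Rarg (ENSMUSG00000001288.15, chromosome 15, 102234938 to 102257517, minus strand), a receptor gene known for its expression in the caudal embryo, had the densest group of sites. SOX2 and β-catenin each had an intronic site, next to one another, that was stronger in CEpiLC than in naive ESC and in SOX2-OFF than in SOX2-ON.

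The SOX2 site, +3.14 kb at chr15:102243191-102243575, had a SOX2 peak in all 12 libraries. Scores were 1.26, 2.06 and 3.00 in naive ESC, 5.55, 4.86 and 6.00 in CEpiLC, 0.19, 2.66 and 1.59 in SOX2-ON, and 4.72, 4.97 and 3.96 in SOX2-OFF. All CEpiLC and SOX2-OFF libraries lay above all naive ESC and SOX2-ON libraries. The rise from naive ESC to CEpiLC was 3.36 ± 0.75 (SE, n = 3 per group, limma adjusted p = 0.0057), and SOX2-ON minus SOX2-OFF was −3.07 ± 0.75 (adjusted p = 0.0097). Both calls were lost with no filter on sites (3.36, limma adjusted p = 0.074, and −3.07, 0.13) and without replicate 3 of every group (3.55, 0.055, and −3.42, 0.064). The SOX2 TetON call was also lost without replicate 1 (−2.35, 0.098). With all deposited peaks on the log2 fold scale the differences were 0.88 (adjusted p = 0.11) and −0.74 (adjusted p = 0.19), since the deposited folds of 12.2, 12.1 and 15.7 in naive ESC and of 22.9, 20.3 and 34.3 in CEpiLC were closer than the ranks. β-catenin differed in neither comparison past the threshold (0.61 ± 0.81 and −0.07 ± 0.81, adjusted p = 0.57 and 1), and its highest scores came from the third library of each condition. TCF7L1 scored 0, 0 and 0.22 in naive ESC, 0, 1.00 and 0 in CEpiLC, 0, 1.32 and 0.25 in SOX2-ON and 0, 2.20 and 0 in SOX2-OFF, so that all groups overlapped and neither difference passed (0.26 ± 0.58 and −0.21 ± 0.58, adjusted p = 0.79 and 1).

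The β-catenin site, +2.53 kb at chr15:102243833-102244138, had no SOX2 peak in any top list. Its β-catenin scores were 0.25, 0 and 1.34 in naive ESC, 5.25, 4.87 and 4.31 in CEpiLC, 0, 0 and 1.56 in SOX2-ON, and 3.20, 4.97 and 2.49 in SOX2-OFF. Again CEpiLC and SOX2-OFF lay above the other 2 conditions without overlap. CEpiLC minus naive ESC was 4.27 ± 0.70 (SE, n = 3 per group, limma adjusted p = 0.00039), and SOX2-ON minus SOX2-OFF was −3.04 ± 0.70 (adjusted p = 0.0099). The folds were 27.8, 24.7 and 16.4 in CEpiLC against 6.54, 3.06 and 8.82 in naive ESC, and with all deposited peaks on the log2 fold scale neither difference passed (1.81 with adjusted p = 0.11, and −1.75 with 0.24). The list of SOX2-OFF replicate 2, which had the highest score of that group, held 3423 peaks. The call in the SOX2 TetON line was lost without lists shorter than 20000 peaks (−2.33, limma adjusted p = 0.059), without replicate 1 (−2.95, 0.19) or 2 (−2.07, 0.13) of every group, with the shortest list of the target (−1.03, 0.14) and with no filter on sites (−3.04, 0.066).

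LEF1 and TCF7L2 were found at the same site in CEpiLC and not in SOX2-OFF. LEF1 scored 2.26, 2.94 and 2.04 in CEpiLC and 0 in the other 9 libraries, and TCF7L2 scored 3.45, 4.30 and 3.22 and likewise 0 in the other 9. Both pairs passed the filter through CEpiLC alone, so their differences are a description. In CEpiLC the score exceeded that of naive ESC by 2.41 ± 0.33 (SE, n = 3 per group, limma adjusted p = 0.00023) for LEF1 and 3.66 ± 0.55 (adjusted p = 0.0013) for TCF7L2. On the log2 fold scale they were 2.92 (adjusted p = 0.077) and 2.84 (adjusted p = 0.1). The LEF1 difference was also lost with no filter on sites (2.41, adjusted p = 0.13) and with the 5000 strongest peaks (0.42, adjusted p = 0.088). The full lists of SOX2-OFF held no LEF1 or TCF7L2 peak at the site. SOX2-ON and SOX2-OFF were equal at 0 for both, so that β-catenin was present in all SOX2-OFF libraries where neither factor had a peak. The lists of SOX2-OFF replicate 2 held only 17493 LEF1 and 4134 TCF7L2 peaks. A missing peak there cannot be told apart from too few reads. TCF7L1 had a peak there in 1 naive ESC and 1 SOX2-OFF library.

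The remaining Rarg sites lay mostly within 3 kb of the internal start and were replicated in CEpiLC. At −0.56 kb, chr15:102246895-102247317, β-catenin scored 2.13, 2.00 and 0 in CEpiLC and 0.38, 0 and 0 in naive ESC, and the groups overlapped. The difference of 1.25 ± 0.45 (SE, n = 3 per group) had a limma adjusted p of 0.039, and it passed in 9 of the 26 alternatives that gave a value. With means of 0 in SOX2-ON and SOX2-OFF, the pair met the filter mainly through CEpiLC, and its difference is a description. Leaving out any 1 library other than CEpiLC replicate 3 and SOX2-OFF replicate 2 ended the call, with adjusted p from 0.052 to 0.14. A TCF and a CDX sequence were present at +1.41 kb, where SOX2, β-catenin and LEF1 were each found in 2 of 3 CEpiLC libraries.

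**Figure D4:**
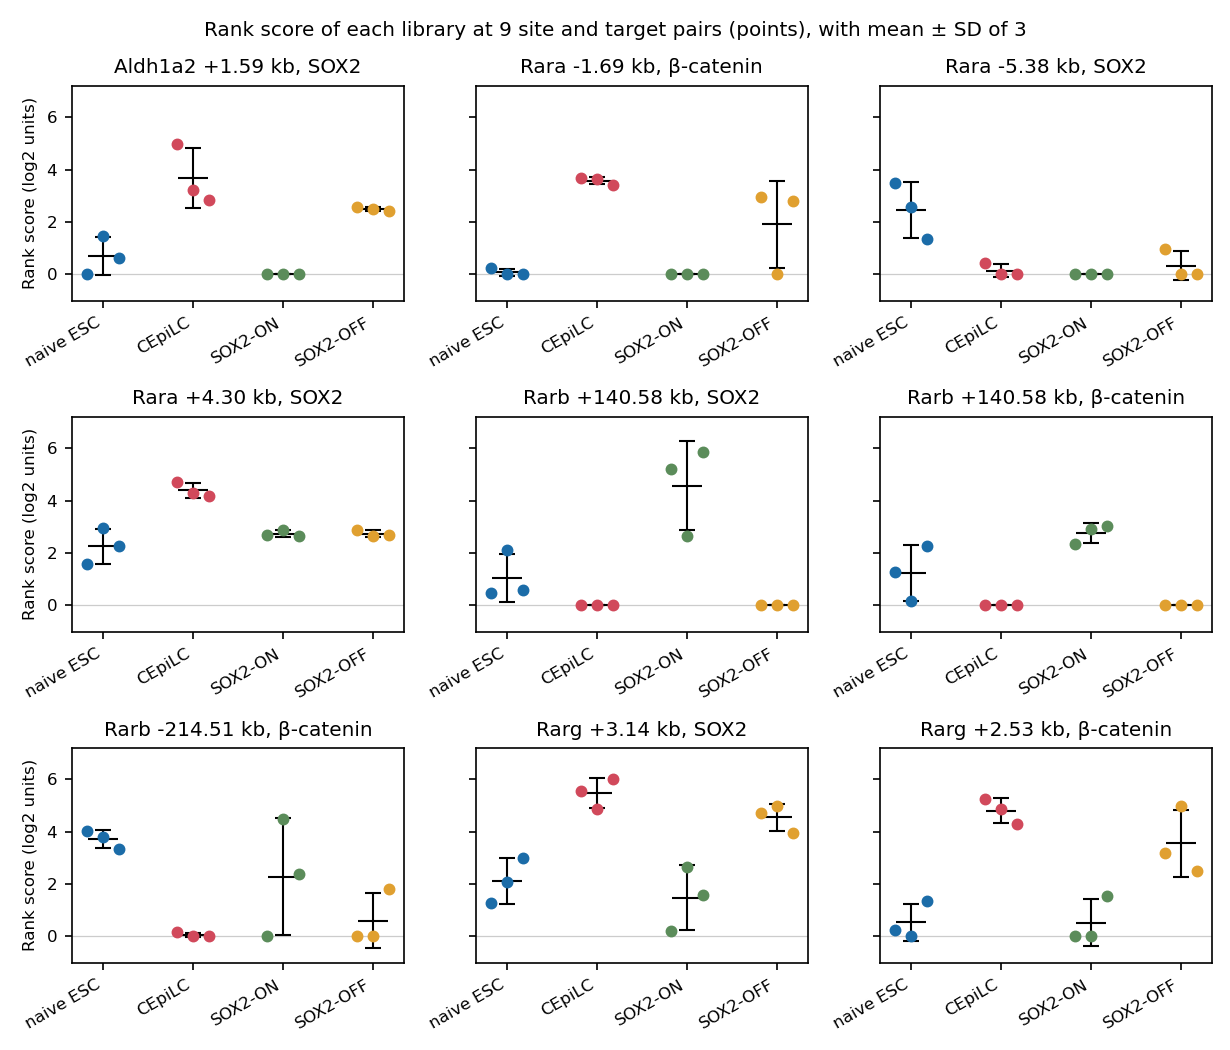
Rank score (log2 units, y axis) of each library (points) with mean ± SD (bars, n = 3) in 4 conditions (x axis), at the 9 SOX2 or β-catenin pairs with the largest difference in either comparison. SOX2 and β-catenin at Rarb +141 kb were above 0 in naive ESC and SOX2-ON libraries only, and SOX2 at Rarg +3.14 kb and β-catenin at Rarg +2.53 kb were highest in CEpiLC and SOX2-OFF.

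The comparisons share no library, although both use the spread estimated over all 12, so their calls can be set side by side. SOX2 and β-catenin at the Rarg introns, and SOX2 at Aldh1a2 +1.59 kb, passed in both comparisons and were higher in CEpiLC and in SOX2-OFF. Each of these pairs lost its SOX2 TetON call under the settings given above. β-catenin at Rarb +141 kb passed in both and was higher in naive ESC and in SOX2-ON, although its wild-type difference was lost when single libraries were left out. SOX2 at Rara +4.3 kb and −5.38 kb, β-catenin at Rara −1.69 kb and Rarb −215 kb, and LEF1 at Rara −1.69 kb passed between the wild-type states and not between SOX2-ON and SOX2-OFF, except that β-catenin at Rara −1.69 kb passed there without SOX2-OFF replicate 2 (−2.88, limma adjusted p = 0.00019). The LEF1 pair met the filter through CEpiLC and SOX2 at Rara −5.38 kb through naive ESC, so their differences are a description. SOX2 at Rarb +141 kb (4.58) and Aldh1a2 +16.2 kb (1.87) passed between SOX2-ON and SOX2-OFF and not between the wild-type states. The Aldh1a2 +16.2 kb pair met the filter through SOX2-ON and lost its call under the settings given above. Whether the comparisons differed at these sites was not tested.

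Other genes of the pathway were taken from a fixed list of 14: enzymes, carriers, binding proteins and the retinoid X receptors. Of these, 11 had at least 1 tested pair of site and target, 68 pairs in all. In CEpiLC against naive ESC 19 pairs passed (27.9%), 17 higher and 2 lower in CEpiLC, against 36.5% of all 71676 pairs tested. Stra6, the retinol uptake receptor, had 7 of the higher pairs, 5 of β-catenin and 2 of LEF1, and Crabp2, which carries retinoic acid to the nucleus, had 5. Among them were LEF1 at a Crabp2 site (3.81 ± 0.90, SE, n = 3 per group, limma adjusted p = 0.0068) and LEF1 and β-catenin at 1 Stra6 site (2.99 ± 0.39 and 2.54 ± 0.29, adjusted p = 2e-04 and 3.8e-05). Both pairs at this Stra6 site had a SOX2-ON minus SOX2-OFF difference of 0. They may thus have met the filter through CEpiLC alone, and their differences are a description. Rdh10, which makes retinal, and Cyp26b1, a relative of Cyp26a1, had 1 higher pair each. Aldh1a3, another enzyme that makes retinoic acid, had 1 higher and 2 lower, the latter of β-catenin and TCF7L1 at 1 site (−1.87 ± 0.49 and −1.59 ± 0.22, adjusted p = 0.0079 and 0.00015). These 2 lower pairs also had a SOX2-ON minus SOX2-OFF difference of 0. They may have met the filter through naive ESC alone, so their differences are a description.

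In SOX2-ON against SOX2-OFF, 3 of the 68 pairs passed (4.41%), against 13.2% of all 71676, and all 3 were of SOX2. They were higher in SOX2-ON at Aldh1a1 (0.93 ± 0.26, SE, n = 3 per group, limma adjusted p = 0.02), which makes retinoic acid in adult tissues, and at Rxra (1.62 ± 0.33, adjusted p = 0.0035), which encodes a retinoid X receptor. For the Aldh1a1 pair, CEpiLC minus naive ESC was 0. It may have met the filter through SOX2-ON alone, so its difference is a description. SOX2 was lower in SOX2-ON at Rdh10 (−3.40 ± 0.76, adjusted p = 0.0057).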

How the data were processed

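Chromatin from mouse cells was profiled by ChIP-seq for 5 targets in 4 conditions, with 3 libraries each, from single-end reads of 76 bp. The authors aligned reads with BWA to mm10 within an nf-core pipeline and called narrow peaks in each library with MACS2. The deposited fold of a peak is the ratio of its signal to background at the summit, as MACS2 writes it, and was the main value used here. The deposited −log10 p and −log10 q of each peak were used only for alternatives. Whole-number peak scores and the 4 input samples were not used.

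The members and lists were chosen with earlier results of these data known. Sites were merged from windows of 100 bp on each side of the summits of the 20000 strongest peaks of each library. Rank scores were fitted over the 12 libraries of a target with limma 3.58.1 (R 4.3.3, empirical Bayes with variance trend), at sites with a peak in at least 3 libraries, with Benjamini-Hochberg adjustment. Sites were named by rule: for each gene and target the replicated site of highest mean score, and for each gene and comparison up to 3 called SOX2 or β-catenin sites with the largest difference. On simulated data, 50.6 to 80% of added differences of 3 score units were recovered, and 6.52 to 9.53% of calls were false. Tables were handled with pandas 2.3.3 and numpy 2.4.6 in Python 3.11.15. Single values were not tested by permutation, since 3 libraries a group allow no p under 0.1 in an exact test. There were 16 alternatives planned and 13 added after the data were seen. Of the called genes in the list of other pathway genes, 1 is counted in the totals and not reported by itself here.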

Additional observations from a re-analysis of the deposited data

How the results depend on the processing

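In CEpiLC against naive ESC, the count of called pairs of site and target at the 5 genes was 17 of 39, 8 of 14 with the 5000 strongest peaks, 8 of 21 with the shortest list of the target, 8 of 316 with no filter on sites and 7 of 14 with a peak in at least 6 of 12 libraries. Over all pairs, 36.5%, 39.3%, 30.6%, 1.93% and 39.7% were called. Leaving out replicate 1, 2 or 3 of every group gave 12 to 15, and leaving out 1 condition's replicate on its own gave 14 to 16. In SOX2-ON against SOX2-OFF, the count of 6 became 3 with no filter on sites, where 0.716% of all pairs were called. Leaving out a replicate number gave 3 to 4, and leaving out single libraries gave 6 to 8, the highest without SOX2-ON replicate 1. The cause of these changes was not tested. With a replicate block the counts were 16 and 6, and the β-catenin difference at Rarb +141 kb between CEpiLC and naive ESC lost its call. For every target, libraries of the same replicate number correlated more on average than those of other numbers. The means ran from 0.0396 against −0.0198 for β-catenin to 0.0954 against −0.0462 for TCF7L1. Above 0.1 were 1 of 18 same-number pairs for SOX2 and 8 of 18 for LEF1, the highest of the targets. Whether same-number libraries share a culture or day was not stated. Of 21 called differences at named sites, 2 passed in every alternative that gave a value, 8 were lost in 1 or 2, 8 in 3 to 6 and 3 in more than 6, and none changed direction. With all deposited peaks on the log2 fold scale 8 of the 21 passed. Without lists shorter than 20000 peaks 17 passed, and β-catenin at Rarb −215 kb (−3.56, limma adjusted p = 0.14) was among those lost. The files hold no depth, so a score of 0 in a short list cannot be told apart from too few reads.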
